A study of Mus musculus with 34 samples.

Results

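Sox17, Sox7 and Sox18 are the 3 members of the SOXF subgroup of SOX transcription factors, and they were taken by name from the 53655 genes of the count tables. Each was followed as CPM, the gene's counts relative to the library total after TMM scaling, in 34 RNA-seq libraries, from mouse epiblast stem cells (EpiSC) and from the definitive endoderm (DE) they were turned into. The count tables gave Sox17 639258 counts summed over the DE libraries, Sox18 2373 and Sox7 224, so the precision behind the 3 genes was very different.

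SOXF factors bind DNA through a conserved HMG box and can partner with β-catenin, the effector of canonical WNT signalling. Sox17 is required in the mouse for the gut endoderm and is one of the standard markers of definitive endoderm, while it also acts in blood-forming and arterial endothelium. Sox7 is known from primitive and parietal endoderm and from early vessels, and Sox18 from vascular and lymphatic endothelium.

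The SOXF genes are close relatives at the level of sequence, which matters here because reads are assigned by sequence. The stretches printed, for Sox17 and Sox18, are 90 coding bases inside the HMG box, read from GENCODE M21 transcripts on GRCm38, with Sox2 (a SOXB1 factor of the pluripotent epiblast) as a relative outside the subgroup. Capitals mark bases unlike Sox17 at the same position.
Sox17: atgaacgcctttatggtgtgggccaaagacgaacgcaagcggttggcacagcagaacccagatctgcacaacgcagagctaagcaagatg
Sox18: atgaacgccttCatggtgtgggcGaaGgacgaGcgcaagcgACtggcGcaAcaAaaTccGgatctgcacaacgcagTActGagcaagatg
Sox2: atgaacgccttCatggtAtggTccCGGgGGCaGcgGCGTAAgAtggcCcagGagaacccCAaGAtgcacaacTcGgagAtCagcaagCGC
The Sox17 stretch lies in exon 4 of 5 at chr1:4493104-4493193 on the minus strand. The Sox18 stretch lies in exon 1 of 2 at chr2:181671186-181671275 on the minus strand, and the Sox2 stretch in the single exon at chr3:34650554-34650643 on the plus strand. Sox18 differed from Sox17 at 14 of the 90 bases and Sox2 at 30. Over a longer window of 210 bases, Sox17 was 84.8% identical to Sox18. The longest exact run that any pair of the SOXF transcripts shared was 29 bases, between Sox17 and Sox18, which is shorter than the 100-base reads. As whole genes, Sox17 spans chr1:4490931-4497354 (minus strand, 4772 merged exon bases) and Sox18 chr2:181669836-181671640 (minus, 1620), and Sox7, on chromosome 14, has 3299 merged exon bases. An annotated antisense gene, Gm37587, shares 804 of the 4772 Sox17 exon bases, and its reads were not analysed here.

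The study set EpiSC beside DE across inbred mouse strains. EpiSC had been kept on irradiated mouse embryonic fibroblasts with FGF at 12.5 ng/mL, activin A at 20 ng/mL and NVP-TNKS6561 at 175 nM, and 17 libraries came from C57BL/6J (5 lines), PWK/PhJ (3), CAST/EiJ (2), NOD/ShiLtJ (2), WSB/EiJ (2), NZO/HiLtJ (2) and DBA/2J (1). DE came from the same kind of lines after 16 h of CHIR at 3 uM with activin at 40 ng/mL, then 24 h of activin at 100 ng/mL with LDN-193189 at 100 nM, and CXCR4-positive cells were taken by magnetic sorting. The 17 DE libraries were from C57BL/6J (5 lines), PWK/PhJ (4), NOD/ShiLtJ, NZO/HiLtJ and WSB/EiJ (2 each), CAST/EiJ (1) and DBA/2J (1), and 16 lines had both cell types. The labels name no genetic change in any line, and each library was 1 line, so a strain was represented by 1 to 5 lines. The library kit changed together with the cell type (a stranded poly(A) kit for EpiSC, a low-input amplification kit for DE), as did the sort, so these cannot be told apart from the cell type.

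DE libraries held 23772045 to 67722013 counts and EpiSC libraries 25584647 to 33831684. Markers of the labelled cell types separated the groups. All 8 pluripotency markers were lower in DE, where 39.9% of all tested genes were. Of 10 definitive endoderm markers 9 were higher, among them Cxcr4, the sorted antigen, where 37.3% of all tested genes were. The feeder cells' markers were present in both: summed over 12 fibroblast genes they ranged from 103 to 3840 CPM in EpiSC and from 59.4 to 1403 CPM in DE. In bulk libraries, fewer cells of a type and less RNA per cell cannot be told apart.

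Sox17 was the SOXF gene that changed most between the cell types. In EpiSC it ranged from 0.487 to 27.8 CPM with a median of 4.84, and in DE from 365 to 1443 CPM with a median of 1116, so no DE library came near the highest EpiSC library. Among lines with both cell types, DE exceeded EpiSC in 16 of 16, with a ratio from 30.1 to 1787 and a median of 178. The log2 fold change was 7.65 ± 0.38 (SE, 17 libraries against 17; edgeR's quasi-likelihood test, Benjamini-Hochberg adjusted p = 3.87e-17). The spread narrowed as the level rose: the coefficient of variation over libraries was 1.09 in EpiSC and 0.313 in DE.

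Sox18 rose too, to a mean of 2.17 CPM per kb of exon in DE against 214 for Sox17. EpiSC libraries held 1 to 8 counts each and 42 in all, a median of 0.079 CPM. DE libraries held 5 to 720 counts, from 0.198 to 10.4 CPM with a median of 2.76. DE exceeded EpiSC in 16 of 16 lines, and the log2 fold change was 4.92 ± 0.34 (adjusted p = 3.32e-14, edgeR's quasi-likelihood test). The cell types overlapped over all libraries: the lowest DE value, from PWK/PhJ line AC695, was under the highest EpiSC value of 0.301 CPM. The coefficient of variation of Sox18 was 0.878 in DE and 0.766 in EpiSC. With 1 to 8 counts per library the EpiSC value holds counting noise, so these do not compare the spread between lines.

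Sox7 was near the detection limit in both cell types and did not pass the test. EpiSC libraries held 140 counts in all, from 0.039 to 0.640 CPM with a median of 0.266. DE libraries held 224 counts, from 0 to 1.68 CPM with a median of 0.194, and 3 of the 17 had none. Sox7 was higher in DE in 7 lines and lower in 9, and the log2 fold change was 0.09 ± 0.60 (adjusted p = 0.898, edgeR's quasi-likelihood test). Of the 3 SOXF genes, 2 were therefore called in this comparison, against a background of 77.2% of the 20907 genes tested (37.3% higher in DE and 39.9% lower), whose median log2 fold change was -0.06.

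**Figure D1:**
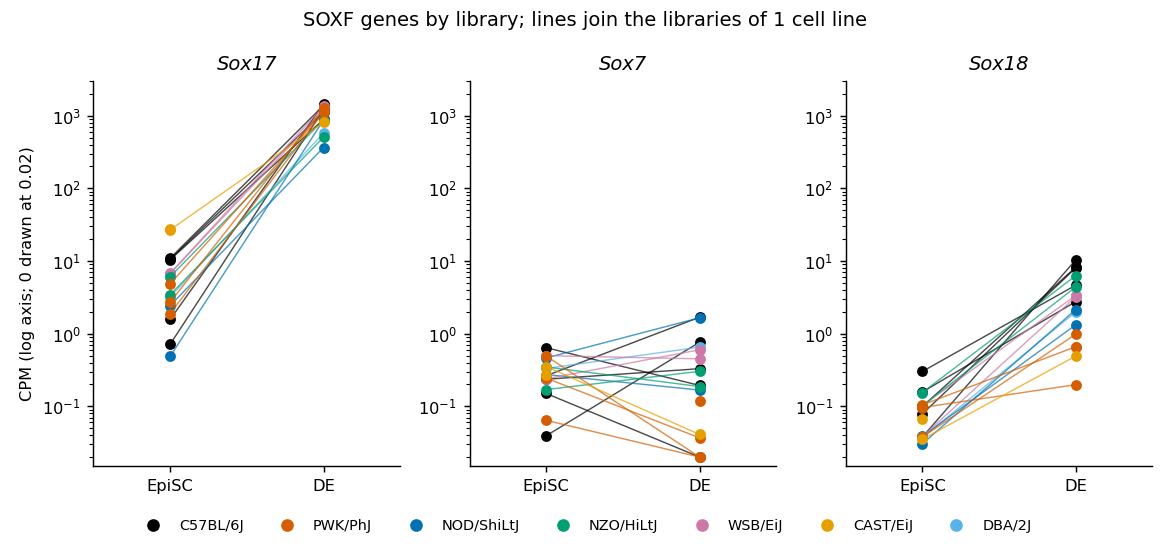
CPM of Sox17, Sox7 and Sox18 in each cell line (log axis, 1 point per library, values of 0 drawn at 0.02), with lines joining the EpiSC and DE libraries of the same line. Sox17 rises in all 16 joined lines to between 365 and 1443 CPM, Sox18 rises in 16 to at most 10.4 CPM, and Sox7 goes up in 7 and down in 9.

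Per kilobase of exon, which allows genes to be compared, the SOX family was reordered between the cell types. Sox17 stood eighth of 19 SOX genes in EpiSC at a mean of 1.57 CPM per kb and first in DE at 214 CPM per kb. Sox18 went from 0.055 to 2.17 CPM per kb and Sox7 from 0.090 to 0.128. Sox2 went the other way, from 29.0 CPM per kb, the highest of the family in EpiSC, to 1.15 in DE. The SOXF genes together held a median of 0.987% of the family's per-kilobase signal in EpiSC (0.155 to 5.00%) and 70.1% in DE (45.1 to 77.9%), and these ranges did not overlap.

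Within the subgroup, Sox17 made up a median of 86.3% of the per-kilobase signal in EpiSC (50.1 to 98.0%) and 99.0% in DE (97.4 to 99.9%). Beyond the SOXF genes, 14 of the 16 other SOX genes were tested, of which 5 rose and 6 fell, where 37.3% of all tested genes rose and 39.9% fell, so these counts were near the background. Their median log2 fold change was -0.60. Sox4 (3.01 ± 0.10) and Sox21 (4.78 ± 0.32) were among those that rose, and Sox11 (-2.61 ± 0.15) and Sox12 (-2.30 ± 0.15), both SOXC factors of progenitor cells, among those that fell. Sox4, the remaining SOXC factor, was second to Sox17 in DE at 54.4 CPM per kb.

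**Figure D2:**
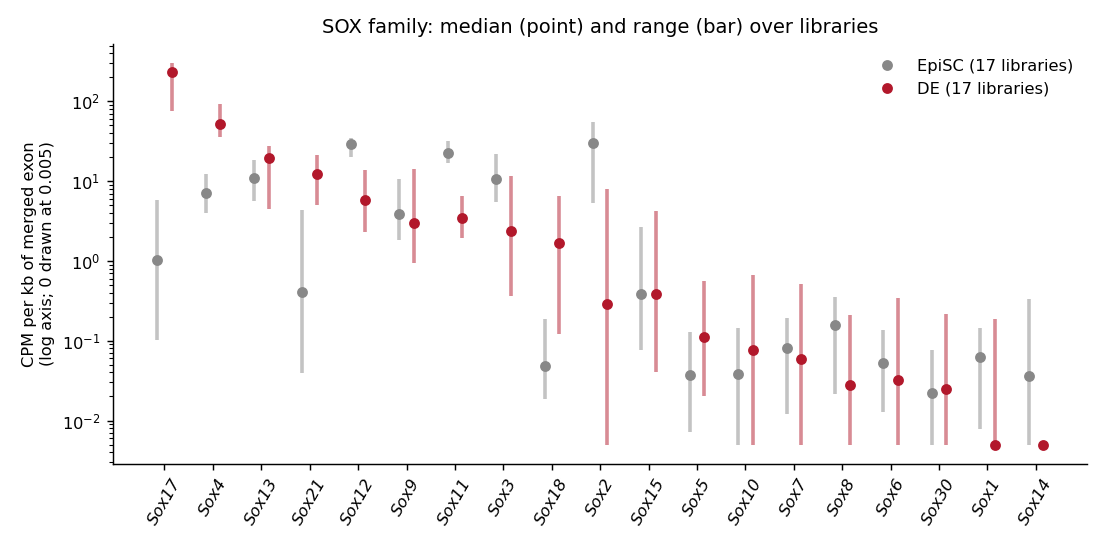
Median (point) and range (bar) of CPM per kb of merged exon for the SOX genes over EpiSC and over DE libraries (log axis, 0 drawn at 0.005). The median of Sox17 moves from 1.02 in EpiSC to 234 in DE and that of Sox2 from 30.3 to 0.289. Sox7 remains at the low end of the axis. By mean, Sox17 is eighth in EpiSC and first in DE, and Sox2 is first in EpiSC.

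The genes that work around Sox17 in the endoderm network rose with it. All 15 of 15 listed endoderm transcription factors were higher in DE, where 37.3% of all tested genes were. Their median log2 fold change was 4.30 against -0.06 over all genes. The log2 fold changes of Foxq1 (7.17 ± 0.34), Gsc (5.90 ± 0.33) and Gata6 (5.65 ± 0.31) were all under the 7.65 of Sox17. Foxa2, a pioneer factor of the endoderm already present in EpiSC at a median of 54.7 CPM, rose by only 0.75 ± 0.23. Of 5 β-catenin and TCF genes through which SOXF factors meet WNT signalling, 3 rose and 2 fell, where 77.2% of all genes were called. Those that rose were Tcf7l2 (by 3.59 ± 0.19), Tcf7l1 (0.60 ± 0.12) and Ctnnb1 (0.25 ± 0.10). Those that fell were Lef1 (-2.49 ± 0.28) and Tcf7 (-0.29 ± 0.07).

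Vascular genes, with which the SOXF genes share their other role, were called no more often than genes at large. Of 20 listed endothelial and blood markers 17 were tested, 5 rose and 6 fell, where 77.2% of all genes were called, 37.3% higher and 39.9% lower. The median log2 fold change of the list was -0.17. Those that rose were Flt1 (2.64 ± 0.14), Egfl7, Lmo2, Runx1 and Dll4, and those that fell were Kdr, Tek, Robo4, Erg, Tal1 and Flt4. The defining endothelial markers Cdh5, Pecam1, Tie1, Emcn, Esam and Cldn5 averaged under 1 CPM in both cell types, and Tie1 had 0 counts in DE. The summed level of the list was 123 to 325 CPM in EpiSC and 396 to 1381 CPM in DE. Of 14 markers of extraembryonic endoderm, a further tissue that uses Sox17 and Sox7, 11 were tested, 5 rose and 1 fell, also beside the 37.3% of genes that rose and 39.9% that fell.

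Before differentiation, Sox17 varied widely among the C57BL/6J lines and little between the lines of CAST/EiJ or of WSB/EiJ. C57BL/6J EpiSC gave 10.4, 10.6 and 10.9 CPM in lines 1, 4 and 44 and 1.57 and 0.713 CPM in lines 2 and 5-1. The C57BL/6J lines were thus of a high and a low kind, with none between 1.57 and 10.4 CPM. CAST/EiJ gave 26.9 and 27.8 CPM, the highest values of all EpiSC libraries. NOD/ShiLtJ gave the lowest single value, 0.487 CPM, beside 2.43 in its other line.

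The remaining strains lay between these. WSB/EiJ gave 6.70 and 6.76 CPM, NZO/HiLtJ 3.43 and 6.06, DBA/2J 3.21, and PWK/PhJ 4.84, 2.72 and 1.89. In order of their means the strains ran CAST/EiJ (27.3), C57BL/6J (6.83 ± 5.21, SD, n = 5), WSB/EiJ (6.73), NZO/HiLtJ (4.75), DBA/2J (3.21), PWK/PhJ (3.15 ± 1.52, n = 3) and NOD/ShiLtJ (1.46). Of the neighbours in this order, CAST/EiJ and C57BL/6J did not overlap, nor did WSB/EiJ and NZO/HiLtJ or NZO/HiLtJ and DBA/2J, and the other neighbouring strains overlapped or held a single line inside the next strain's range. With few lines per strain and no share over all genes computed, these gaps are a description.

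The test over 5 strains did not pass in EpiSC for Sox17 (adjusted p = 0.313, edgeR's quasi-likelihood test) or Sox7 (adjusted p = 0.942), where 40.0% of genes passed, and Sox18 had too few counts to enter it. CAST/EiJ was 2.01 ± 0.79 above C57BL/6J on the log2 scale for Sox17 (adjusted p = 0.0709), in a contrast in which 31.6% of genes passed. NOD/ShiLtJ stood at -2.22 ± 1.00 (adjusted p = 0.160, 12.9% of genes passing) and PWK/PhJ at -1.08 ± 0.78 (adjusted p = 0.319, 29.8%). NZO/HiLtJ was at -0.52 ± 0.88 (5.52% of genes passing) and WSB/EiJ at -0.01 ± 0.85 (7.41%). In none of these 5 contrasts did Sox17 or Sox7 pass the edgeR threshold or DESeq2's, although unadjusted p-values of Sox17 were under 0.05 in the CAST/EiJ and NOD/ShiLtJ contrasts. With the level of fibroblast markers added as a covariate, the CAST/EiJ difference became 3.07 (adjusted p = 0.0122 by edgeR). The other 3 of 4 alternative settings did not pass, nor did any of 17 fits leaving out 1 library (1.72 to 2.25). Other Sox17 contrasts also moved over the 4 settings without passing, PWK/PhJ from -1.08 to 0.23 and WSB/EiJ from -0.003 to 0.70.

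In the same CAST/EiJ contrast, 8 of the 15 endoderm transcription factors were higher than in C57BL/6J (Eomes, Gsc, Otx2, Foxa2, Gata6, Hhex, Prdm1 and Foxq1), with a list median of 1.61 on the log2 scale, where 14.5% of all genes were higher and 17.1% lower. Of 10 definitive endoderm markers 6 were higher, with Cer1, a secreted antagonist of Nodal and BMP, at 2.99 ± 0.92. Of 8 pluripotency markers 5 were lower: Pou5f1, Fgf4, Tdgf1, Foxd3 and Dppa4.

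Across the 17 EpiSC libraries, the genes most like Sox17 were Cer1, Atp8a1, Foxa1 and Flt1. Cer1 had the highest Pearson r with Sox17 (0.96, on log2 CPM) among 9737 genes, followed by Atp8a1 (0.95), a phospholipid flippase, Foxa1 (0.94), a forkhead pioneer factor, and Flt1 (0.94), a VEGF receptor. These 4 were the ones named by rank, their r was from 0.896 to 0.935 after each strain's mean was removed, and the points share library, depth and strain, so r is given as a description. Cer1 was 788 and 657 CPM in the CAST/EiJ lines. In C57BL/6J it was 185, 157 and 97.6 CPM in lines 1, 4 and 44 but 15.7 and 3.83 CPM in lines 2 and 5-1, the same division as for Sox17. Foxa1 divided those lines alike, at 28.0, 17.9 and 12.3 CPM against 2.55 and 2.55.

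Of 33 relations computed between SOXF genes, marker sums and cell types across libraries, 1 passed over all libraries. Sox17 in EpiSC rose with the summed endothelial and blood markers (r = 0.934, rho = 0.953, permutation p = 1e-05 for each, the smallest that 100000 resamples can give, adjusted p = 0.00033, n = 17). It was r = 0.903 without the 2 libraries farthest from the median and 0.896 on deviations from strain means. In the 6 lines whose names are plain numbers r was 0.960 but did not pass (adjusted permutation p = 0.267). In the 11 lines named AC or WM it was 0.929 and passed (adjusted permutation p = 0.00033). Flt1 alone made up 58.2 to 83.4% of that sum, and without it, an alternative chosen after seeing the data, r was 0.608 (permutation p = 0.0103, unadjusted). Flt1 was thus the larger part of the sum, and the defining endothelial genes were, as given, under 1 CPM.

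On deviations from strain means, Sox17 in EpiSC was lower where fibroblast markers were higher, and over all EpiSC libraries this relation did not pass. The Pearson r was -0.374 over all 17 (rho = -0.419, permutation p adjusted to 0.503) and -0.707 on deviations from strain means (adjusted permutation p = 0.0257). On the same deviations, Sox17 was also related to extraembryonic endoderm markers (r = -0.682) and to Sox18 (r = 0.705), each with an adjusted permutation p of 0.0257, and Sox18 to endothelial markers (r = 0.645, adjusted permutation p = 0.0434). Over all 17 libraries these 3 relations did not pass (adjusted permutation p of 0.503 to 0.538), and those of Sox18 rest on its 42 counts. The permutations of deviations treated them as interchangeable, although deviations within a strain depend on each other. The p-values on deviations are therefore likely too small. In C57BL/6J, lines 1, 4 and 44 had fibroblast sums of 103, 483 and 1175 CPM, and lines 2 and 5-1 had 1244 and 2963 CPM. The strains were not alike in this. In NOD/ShiLtJ, lines AC576 and AC595 had sums of 768 and 3840 CPM and Sox17 of 2.4 and 0.487 CPM. In WSB/EiJ, lines AC627 and AC635 had sums of 830 and 2094 CPM and nearly equal Sox17, at 6.70 and 6.76 CPM. Of the extraembryonic endoderm markers, Ttr, Afp, Apoa1, Apoa4, Amn and Cubn averaged under 1 CPM in EpiSC. The sum of that list was 284 CPM in C57BL/6J line 1 and 1675 CPM in line 5-1. These lines also had the lowest and highest fibroblast sums of that strain. Whether the relation of Sox17 to that list differs from its relation to fibroblast markers was not tested. The part of feeder cells in the difference between lines was not tested further.

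No relation was detected between the Sox17 level of a line in EpiSC and in DE. Over the 16 lines with both cell types, r between Sox17 in EpiSC and in DE was 0.045 (rho = 0.053, permutation p adjusted to 0.920). It was 0.094 without the 2 farthest lines, -0.119 in the 6 numbered lines and 0.123 in the 10 others. C57BL/6J line 2, low in EpiSC, had the highest Sox17 of all DE libraries, at 1443 CPM, and CAST/EiJ line WM078, high in EpiSC, reached 807 CPM.

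In DE, Sox17 was of the same order in every strain. C57BL/6J gave 889, 1443, 1121, 1384 and 1223 CPM in lines 1, 2, 4, 44 and 5-1, and PWK/PhJ gave 1112, 1280, 1236 and 1116 CPM. WSB/EiJ gave 1190 and 1352 CPM, NZO/HiLtJ 507 and 877, NOD/ShiLtJ 365 and 870, CAST/EiJ 807 and DBA/2J 574. By their means the order was WSB/EiJ (1271), C57BL/6J (1212 ± 221, SD, n = 5), PWK/PhJ (1186 ± 85.1, n = 4), CAST/EiJ (807), NZO/HiLtJ (692), NOD/ShiLtJ (617) and DBA/2J (574). Among neighbours in this order PWK/PhJ and CAST/EiJ did not overlap, and every other neighbouring pair did. CAST/EiJ was a single line here, so this gap is a description.

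The strain test in DE did not reach the threshold for Sox17 (adjusted p = 0.0533, edgeR's quasi-likelihood test, where 22.3% of genes passed), and it passed with DESeq2 (adjusted p = 0.0148). The NOD/ShiLtJ contrast with C57BL/6J passed at -0.97 ± 0.29 (adjusted p = 0.0455, 11.4% of genes passing, 3.38% lower and 7.98% higher). The call was fragile: it was lost without any of 11 of the 17 libraries. Without the line AC576, whose 365 CPM was the lowest of all DE libraries, the difference was -0.49 (adjusted p = 0.534 by edgeR). Without any of the 4 PWK/PhJ lines, the WSB/EiJ lines or the C57BL/6J lines 2, 4, 44 and 5-1, it was -0.997 to -0.897 with an adjusted p of 0.0553 to 0.0861 by edgeR. In the same contrast 11 of 15 endoderm transcription factors were lower (list median -1.28), 10 of 12 fibroblast markers were higher (list median 3.67) and 5 of 7 tested pluripotency markers were higher. The fibroblast sum of the NOD/ShiLtJ DE libraries, 1199 to 1403 CPM, was the highest of any strain. With that sum as a covariate the Sox17 difference was larger but less precise, at -1.81 ± 0.54. It no longer passed (adjusted p = 0.280 by edgeR). The part of feeder cells and of cells still pluripotent in the NOD/ShiLtJ value cannot be told apart from the strain.

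Sox18 in DE passed the test over strains. C57BL/6J gave 2.76, 8.05, 4.65, 8.23 and 10.4 CPM in lines 1, 2, 4, 44 and 5-1, from 94 to 720 counts. PWK/PhJ gave 0.198, 0.661, 0.664 and 0.981 CPM in lines AC695, AC698, AC699 and AC705, from 5 to 62 counts. All 4 PWK/PhJ libraries lay under all 5 of C57BL/6J, with the nearest values at 0.981 and 2.76 CPM. The strain test passed (adjusted p = 0.00155, edgeR's quasi-likelihood test), as did the PWK/PhJ contrast at -3.40 ± 0.50 (adjusted p = 0.000248, with 17.1% of genes passing, 7.47% lower and 9.66% higher).

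DBA/2J and NOD/ShiLtJ lay between these ranges, NZO/HiLtJ and WSB/EiJ inside that of C57BL/6J, and CAST/EiJ inside that of PWK/PhJ. NZO/HiLtJ gave 4.38 and 6.28 CPM, WSB/EiJ 3.20 and 3.35, DBA/2J 1.99, NOD/ShiLtJ 1.32 and 2.14, and CAST/EiJ 0.491 CPM from 12 counts. In order of means the strains were C57BL/6J (6.82 ± 3.07, SD, n = 5), NZO/HiLtJ (5.33), WSB/EiJ (3.28), DBA/2J (1.99), NOD/ShiLtJ (1.73), PWK/PhJ (0.626 ± 0.322, n = 4) and CAST/EiJ (0.491). NZO/HiLtJ and WSB/EiJ did not overlap, nor did WSB/EiJ and DBA/2J or NOD/ShiLtJ and PWK/PhJ. These strains hold few lines and were sorted by their own means, and the share of genes with such gaps was not computed. The gaps are therefore a description. The NOD/ShiLtJ contrast was at -1.96 ± 0.61 with an adjusted p of 0.05003, just above the threshold by edgeR's quasi-likelihood test, and passed with DESeq2 (-1.95, adjusted p = 0.00431). Of 4 alternative settings 2 did not pass, with an adjusted p of up to 0.280 by edgeR. Leaving out 1 library the difference ran from -2.31 to -1.68, and 12 of 17 such fits did not pass. NZO/HiLtJ (-0.32 ± 0.55, 1.41% of genes passing) and WSB/EiJ (-1.04 ± 0.57, 2.28%) did not pass.

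**Figure D3:**
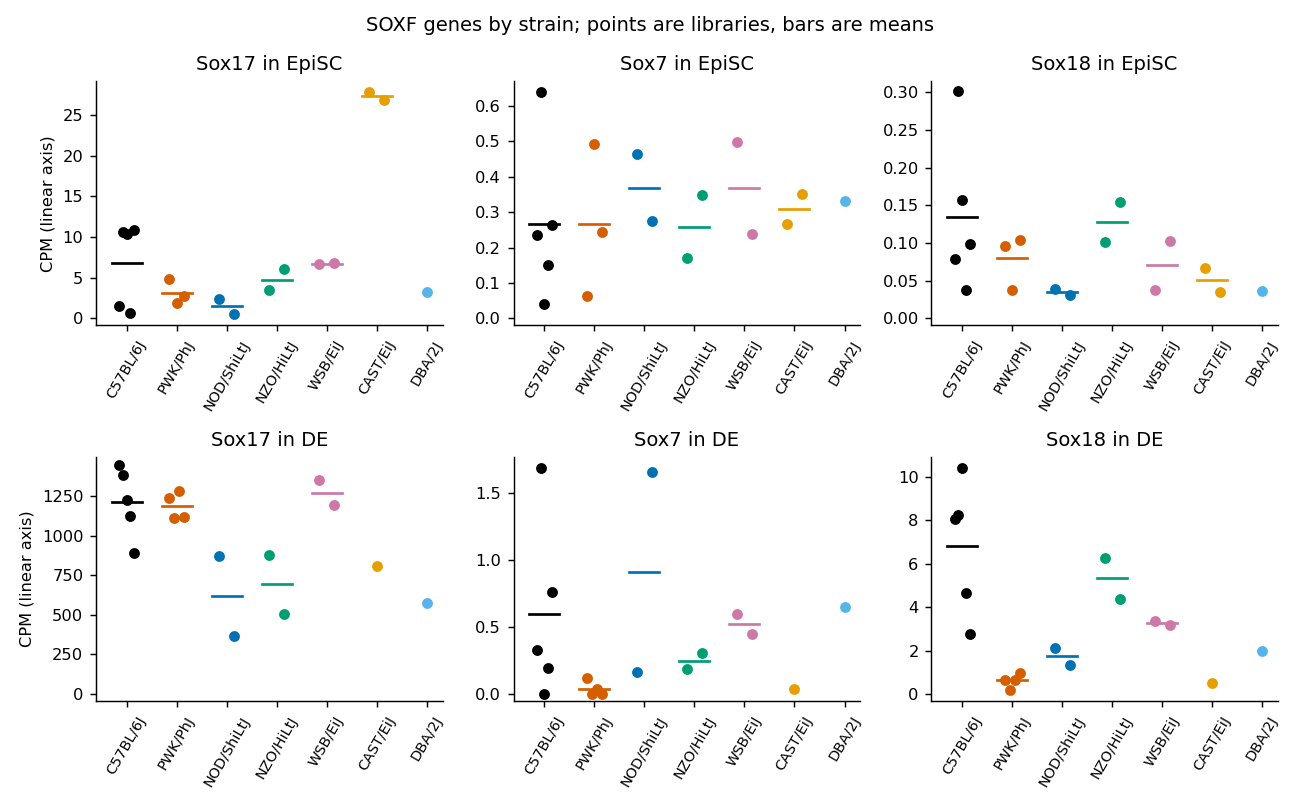
CPM of Sox17, Sox7 and Sox18 by strain in EpiSC and in DE (linear axes, points are libraries, bars are strain means). In DE, Sox17 of PWK/PhJ lies inside the range of C57BL/6J, whereas Sox18 of PWK/PhJ (0.198 to 0.981) lies under all C57BL/6J libraries (2.76 to 10.4).

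The low Sox18 of PWK/PhJ was not shared by Sox17, which in the same libraries differed from C57BL/6J by -0.02 ± 0.22 (adjusted p = 0.967, edgeR's quasi-likelihood test). The difference between the genes was expressed, in an alternative chosen after seeing the data, as log2 of the CPM of Sox18 over that of Sox17. This ratio averaged -10.91 ± 0.83 in PWK/PhJ (SD, n = 4) and -7.58 ± 0.54 in C57BL/6J (n = 5), a difference of -3.33. The exact two-sided permutation p was 0.0159, the smallest that 4 against 5 can give. The strains were already separate in Sox18 and alike in Sox17, so the ratios had to separate. That p-value therefore adds no support to the gap in Sox18. The highest PWK/PhJ ratio was -10.06 and the lowest C57BL/6J ratio -8.30. Per kilobase, Sox18 held 0.053 to 0.258% of the SOXF signal in PWK/PhJ DE and 0.905 to 2.45% in C57BL/6J DE.

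Markers of other cell types were called to differing extents in the PWK/PhJ contrast, where 9.66% of all genes were higher and 7.47% lower. Of the 15 endoderm transcription factors 1 was higher (Hnf4a, a regulator of liver and gut genes) and none lower. Of 15 tested endothelial and blood markers 4 were higher (Kdr, Robo4, Lmo2 and Flt4), and of 12 fibroblast markers 2 were (Fbn1 and Acta2). Of 11 tested extraembryonic endoderm markers 4 were higher (Dab2, Lama1, Col4a1 and Sparc) and 1 lower (Amn). Of 10 definitive endoderm markers 2 were lower (Trh and Krt18), and of 7 tested pluripotency markers 1 was higher (Nanog) and 1 lower (Utf1). The part of such cells in the Sox18 difference was not tested beyond the fibroblast covariate. Fibroblast sums were 245 to 471 CPM in PWK/PhJ DE and 59.4 to 279 CPM in C57BL/6J DE. With that sum as a covariate the Sox18 difference was -4.30 (adjusted p = 0.00205, edgeR's quasi-likelihood test). All strains had been aligned to mm10, which is of C57BL/6J origin, so an effect of strain sequence on read assignment to Sox18 cannot be told apart from expression.

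Whether the low Sox18 of PWK/PhJ belonged to DE alone could not be settled by these counts. EpiSC of PWK/PhJ held 7 Sox18 counts in 3 libraries and EpiSC of C57BL/6J 18 in 5. The rise from EpiSC to DE was smaller in PWK/PhJ by -2.70 ± 0.86 on the log2 scale, which missed the threshold (adjusted p = 0.0578 by edgeR's quasi-likelihood test, where 6.67% of genes passed). It passed with DESeq2 (-2.75, adjusted p = 0.0310), and the other 3 of 4 alternative settings did not pass. For Sox17 the same difference of rises was 1.08 ± 0.76 (adjusted p = 0.486). The test over all 5 strains of unequal rises passed for none of the 3 genes in the main edgeR fit or by DESeq2. In the main fit, adjusted edgeR p-values were 0.632 for Sox17, 0.370 for Sox7 and 0.202 for Sox18. None was under 0.05 before adjustment, where 10.7% of genes passed. Without the low-count filter it passed for Sox17 (adjusted p = 9.18e-07 by edgeR).

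Sox7 in DE was too sparse to order the strains. PWK/PhJ held 4 counts over its 4 libraries (0, 1, 3 and 0) and CAST/EiJ 1 count. C57BL/6J held 26, 7, 12, 44 and 0 counts in lines 1, 2, 4, 44 and 5-1, up to 1.68 CPM. NOD/ShiLtJ held 45 and 5 counts, WSB/EiJ 26 and 17, NZO/HiLtJ 11 and 5, and DBA/2J 21. The PWK/PhJ range, 0 to 3 counts, overlapped C57BL/6J through the line 5-1 library with 0 counts.

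The strain test for Sox7 in DE gave an adjusted p of 0.227 (edgeR's quasi-likelihood test), and the PWK/PhJ contrast stood at -3.99 ± 1.43 (adjusted p = 0.0708). That contrast passed with DESeq2 (-4.05, adjusted p = 0.0163) and without C57BL/6J line 5-1 (-4.31, adjusted p = 0.0232 by edgeR). Line 5-1 was the C57BL/6J library with 0 counts. In the other 16 of 17 fits leaving out 1 library the contrast did not pass. Nor did it in 2 of 4 alternative settings (adjusted p up to 0.345 by edgeR). None of the other strain contrasts of Sox7 in DE passed, at 0.66 ± 1.35 for NOD/ShiLtJ, -1.21 ± 1.51 for NZO/HiLtJ and -0.16 ± 1.40 for WSB/EiJ. Their standard errors of over 1 on the log2 scale set what these counts could show.

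No relation between Sox17 and Sox18 was detected over the DE libraries of all strains. The Pearson r was 0.133 over 17 libraries (rho = 0.333, permutation p adjusted to 0.826) and 0.210 without the 2 farthest libraries. It was 0.912 in the 6 numbered lines (5 of them C57BL/6J) and -0.212 in the 11 others, and the first of these had an adjusted permutation p of 0.267. The relation among numbered lines alone therefore did not pass after adjustment.

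The 4 genes most like Sox17 in DE and the 4 most like Sox18 were different ones. For Sox17 they were Gsc (r = 0.90), a homeobox factor of the organizer and anterior endoderm, Foxa2 (0.90), Rad51ap1 (0.88), a DNA repair factor, and Rgs19 (0.86), out of 9284 genes. Gsc (107 CPM), Foxa2 (25.2 CPM), Rad51ap1 (19.6 CPM) and Rgs19 (78.0 CPM) were each lowest in NOD/ShiLtJ line AC576. Without the 2 libraries farthest from the median Sox17, r was 0.77 for Gsc, 0.73 for Foxa2 and 0.74 for Rgs19. For Rad51ap1 it stayed at 0.88. For Sox18 they were Fam83d (r = 0.89), Ptges3 (0.88), Rtn2 (0.88) and Tspan15 (0.87), out of 9285 genes. After each strain's mean was removed, r with Sox18 was 0.19 for Fam83d, 0.53 for Ptges3, 0.42 for Rtn2 and 0.21 for Tspan15, whereas for the 4 genes like Sox17 it was 0.73 to 0.90. The likeness to Sox18 was larger between strains than within them.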

How the data were processed

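Gene counts of 34 libraries, in 2 tables, were analysed as the authors deposited them: raw counts per gene, made with STAR 2.4 and HTSeq 0.6.1 on mm10 per the submitters' processing notes; strand setting and annotation: not given in the sources used here. Reads were paired and 100 bases long per the labels. Groups came from the labels. Lines are separate lines, with no repeat library, so p-values measure the spread between lines. SOXF genes and gene lists were chosen with earlier results of these data known.

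Genes reaching 10 counts in 3 or more libraries were tested with edgeR 4.0.16 (R 4.3.3; TMM, robust quasi-likelihood fit, Benjamini-Hochberg, threshold 0.05). The cell types were compared with a term for strain, and strains with at least 2 lines within each cell type. Log2 values used a prior count of 2. Named genes were the 3 SOXF genes, members of fixed lists, annotated neighbours and, per SOXF gene and cell type, the 4 genes with the highest Pearson r. Sox7, and Sox18 in EpiSC, had too few counts for likeness. The scripts were tested on simulated data. EpiSC and DE libraries of the same line were paired by origin: over 14 lines, the correlation of their deviations from strain means was -0.052 to 0.29 (median 0.062). Alternatives were DESeq2 1.42.0, RLE scaling, no low-count filter, a prior of 0.5, a fibroblast covariate, the cell line as a block and leaving out each library. Correlations and ratios used Python 3.11.15 with scipy 1.17.1. The intervals and errors cover these libraries only. A gene of the endoderm list and a sequence are not reported here.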

Additional observations from a re-analysis of the deposited data

How the results depend on the processing

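Of 1271 alternative values over 46 results on the SOXF genes, 1230 kept their side of the threshold, 13 lost the call, all of Sox17 in NOD/ShiLtJ DE, and 28 gained it. No called value changed sign, while 54 values of 19 results that passed in neither fit did, among them Sox7 in DE against EpiSC. With the cell line as a replicate block, DE against EpiSC gave 7.78 ± 0.44 for Sox17, 4.98 ± 0.41 for Sox18 and -0.27 ± 0.61 for Sox7, and no call on the 3 genes changed.

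Adjusted p of the strain test in DE for Sox17 (0.0533) was 0.0148 with DESeq2, 6.08e-05 without the filter and 0.0432 with the fibroblast covariate, and ran from 0.00667 to 0.114 leaving out 1 library. For Sox7 it was 0.0160 without the filter. The strain by cell type test for Sox17 was 9.18e-07 without the filter. Sox17 of NOD/ShiLtJ DE was -0.95 (adjusted p = 0.0547) with RLE scaling, -1.81 (0.280) with the covariate and -1.68 to -0.49 leaving out 1 library. The relation of Sox17 to endothelial markers was r = 0.960 in the numbered lines, where n is 6 and it did not pass (adjusted permutation p = 0.267). Sox18 of PWK/PhJ DE was -3.72 to -3.12 leaving out 1 library. The causes were not tested. Counts under 100 per library limit Sox7 and Sox18.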

Other observations

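Genes beside the SOXF genes in the genome changed between the cell types in both directions, as did genes at large. Of all genes tested, 37.3% were higher in DE and 39.9% lower. Upstream of Sox18 lie Tcea2, a transcription elongation factor, at 7.56 ± 2.09 CPM in EpiSC and 50.1 ± 22.8 CPM in DE (SD, n = 17 each; log2 fold change 2.68 ± 0.14, SE), and Rgs19, a regulator of G-protein signalling, at 35.2 ± 4.71 and 126 ± 22.8 CPM (1.84 ± 0.06). In PWK/PhJ DE, Tcea2 was lower than in C57BL/6J, at -0.85 ± 0.27 on the log2 scale (edgeR's quasi-likelihood test, adjusted p = 0.0400), and Rgs19 stood at -0.25 ± 0.12 (adjusted p = 0.200). In that contrast 7.47% of all genes were lower and 9.66% higher. The neighbours of Sox7 fell, with log2 fold changes of -1.47 ± 0.14 for Xkr6 and -1.02 ± 0.10 for Pinx1. Rp1 beside Sox17, a photoreceptor gene, was at 0.338 CPM in EpiSC and 0.050 CPM in DE.

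The genes most like Sox18 across DE libraries were low in the same strains. Tspan15, a tetraspanin, was 18.9 to 25.9 CPM in PWK/PhJ, 20.0 CPM in CAST/EiJ and 174 to 326 CPM in C57BL/6J. Fam83d, a mitotic spindle protein, was 50.8 to 56.7 CPM in PWK/PhJ, 78.3 CPM in CAST/EiJ and 175 to 229 CPM in C57BL/6J. Both were chosen for this likeness, so their strain values are a description.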
